A study of Mus musculus with 18 samples.

Results

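The genes described here are 10 named genes of iron handling, heme breakdown and ferroptosis: the ferritin chains Fth1 and Ftl1, the transferrin receptor Tfrc, the iron exporter Slc40a1 (ferroportin), hepcidin (Hamp), heme oxygenase Hmox1, the phagosomal metal transporter Slc11a1, the cystine transporter Slc7a11, the lipid peroxidase Gpx4 and the fatty acid ligase Acsl4. They were taken by name, with Ensembl identifiers matched to mouse symbols, and make up 10 of the 30583 genes in the count table. All 10 passed the filter on low counts, Hamp and Slc7a11 only through the libraries where they were high, and 16311 genes were tested in all.

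RNA was sequenced from the left ventricle of 12-week-old male C57BL/6JR mice, 18 in all, in 6 groups of 3 with 1 library per mouse. In 5 groups the left anterior descending coronary artery was tied off under pentobarbital, and the infarcted left ventricle was taken 10 min later, or after 1, 6, 24 or 72 h. The sham group had the same surgery with the suture passed under the artery and left untied. Sham hearts carry a single nominal time of 0 h, so surgery without ligation was not followed over the time course. The labels name no altered genotype. The series text gives 1 pentobarbital dose of 50 mg/kg for all mice, while the labels of the ligated mice give 50 to 63 mg/kg, rising from entry to entry with time after ligation, and those of sham give none. If those labels hold, dose and time cannot be told apart.

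Iron enters most cells as transferrin-bound iron through the transferrin receptor, is stored inside ferritin shells of heavy and light chains, and leaves through ferroportin, which hepcidin removes from the cell surface. Heme oxygenase opens the heme ring and releases its iron. Ferroptosis is a form of cell death driven by iron-dependent peroxidation of membrane lipids: cystine import and glutathione peroxidase 4 hold it back, and the incorporation of polyunsaturated fatty acids by Acsl4 favours it. In the heart these pathways are known for their links to ischemic injury, and macrophages that clear dead cells and erythrocytes are the body's main recyclers of heme iron.

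The libraries held 18.2 to 25.1 M counts. Levels are given as CPM, the gene's share of a library in counts per M, with the library size scaled by the trimmed mean of M values (TMM), and a gene is said to have risen or fallen where edgeR's quasi-likelihood test gave a Benjamini-Hochberg adjusted p under 0.05. The labels do not say whether mice shared a litter or day, and name cardiomyocytes as the cell type, and the tissue held markers of other cells as well. The summed CPM of 8 cardiomyocyte markers was 56922 to 62113 in sham and 15005 to 19746 at 72 h, while that of 7 monocyte and macrophage markers was 253 to 286 in sham and 3063 to 4028 at 72 h. In such bulk tissue fewer cells of a type and less RNA per cell cannot be told apart. Replicate 1 of 6 h stood apart, with a summed CPM of 151 for 3 atrial markers (Sln, Myl7 and Myl4) against 1.47 to 3.41 in the other 17 libraries.

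None of the 10 genes changed at 10 min or at 1 h, and 6 had risen by 6 h. At 10 min against sham edgeR called 0 of 10, with 0 at an unadjusted p under 0.05, beside 0.0736% of all genes tested. At 1 h it again called 0 of 10, with 0 at an unadjusted p under 0.05, beside 0.294% of all genes, and 1 h against 10 min gave 0 called and 0 at an unadjusted p under 0.05, beside 0.307%. DESeq2 and limma also called 0 of 10 in these 3 comparisons. At 6 h Hmox1, Ftl1, Hamp, Slc7a11, Acsl4 and Slc11a1 had risen, 6 of 10 against 16.3% of all genes, and 0 had fallen against 12.2%. Of these 6, Hamp and Slc7a11 held 0 to 3 counts in each library up to 1 h. They passed the filter only through later libraries, so their rises were favoured in advance, here and at the later times. The same 6 stood above sham at 24 h, where 23.7% of all genes had risen, and 0 had fallen against 20.2%. At 72 h, 6 of 10 had risen (Hmox1, Ftl1, Slc40a1, Slc7a11, Acsl4 and Slc11a1) against 34.2% of all genes, and Gpx4 alone had fallen against 32.2%. With scaling by library size in place of TMM the split at 72 h was 7 risen and 0 fallen, beside 9472 and 2382 of all 16311 genes. Over the whole time course 8 of 10 changed, a share close to the 78.4% of all genes that did. The exceptions were Fth1 (edgeR adjusted p = 0.0887) and Tfrc (adjusted p = 0.207).

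Between neighbouring times, 6 members changed from 1 h to 6 h, 3 from 6 h to 24 h and 5 from 24 h to 72 h. From 1 h to 6 h the same 6 genes rose that stood above sham at 6 h, against 14.5% of all genes, and 0 fell against 10.0%. Hamp and Slc7a11 among them passed the filter only through libraries from 6 h on. From 6 h to 24 h only Ftl1 rose, against 14.2% of all genes, and Fth1 and Slc40a1 fell, against 13.7%, shares close to those of all genes. From 24 h to 72 h Hmox1, Ftl1 and Slc40a1 rose, against 24.4% of all genes, and Hamp and Gpx4 fell, against 26.1%.

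**Figure D1:**
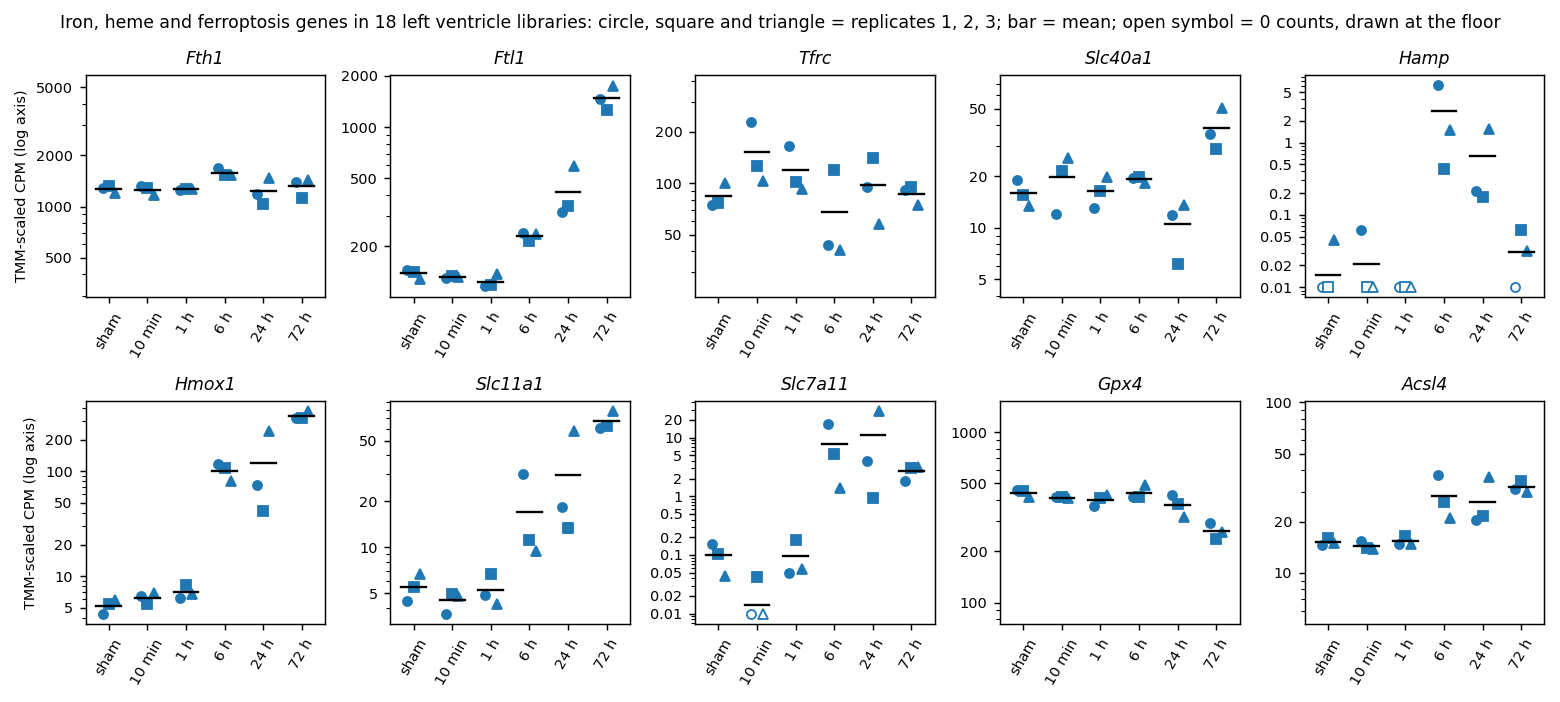
TMM-scaled CPM of the 10 genes (log axes, 1 panel per gene) in each of the 18 libraries by group, with circle, square and triangle for replicates 1, 2 and 3, a bar for the mean of 3, and an open symbol for a library with 0 counts. Hmox1, Ftl1 and Slc11a1 stand highest at 72 h, Hamp peaks at 6 h, and Fth1 keeps within 1038 to 1684 throughout.

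**Figure D2:**
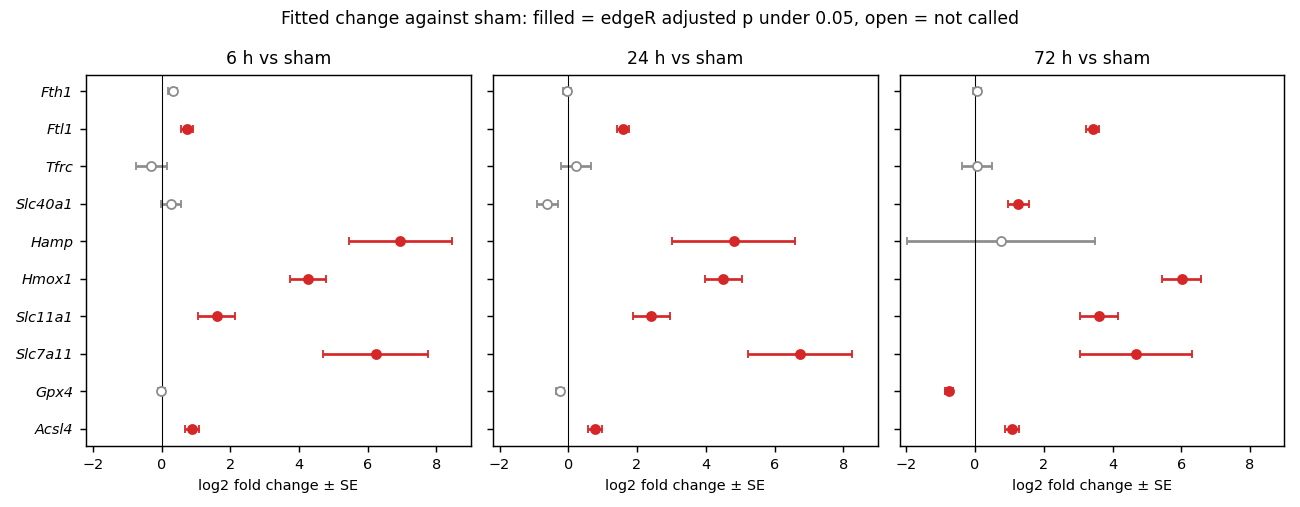
Fitted log2 fold change against sham (x axis, with its SE from edgeR) of the 10 genes at 6 h, 24 h and 72 h, filled where the adjusted p is under 0.05. Ftl1 moves from 0.74 to 3.43 between 6 h and 72 h, while Fth1 stays between -0.04 and 0.32 and is not called.

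The 2 ferritin chains parted. Ferritin heavy chain (Fth1), which oxidises iron for storage, had the highest deposited FPKM of the 10 transcripts in every group up to 24 h. At 24 h its lead over Ftl1 rests on the transcript length used, and with the GENCODE M21 length the mean ratio would be 1.19. Fth1 was not called at any time against sham. Ferritin light chain (Ftl1), which supports mineralisation of the stored iron, rose 10.8-fold by 72 h. Both messages carry an iron-responsive element, a hairpin bound by iron regulatory proteins when iron is scarce: in a 5′ untranslated region binding blocks translation, and in the 3′ untranslated region of Tfrc it protects the message. The elements are shown because these 4 genes share this control and their transcripts moved in different ways. They were found in GENCODE M21 transcripts, on the transcript strand, as an unpaired C, 5 bases, the loop CAGTGN and 5 bases that can pair with those before the loop, G to U pairs allowed. The match occurs in the 5′ untranslated region of 0.136% of 20520 genes and in the 3′ untranslated region of 0.608% of 20884 genes. Capitals mark the unpaired C and the loop, in GRCm38 coordinates.
Fth1, 5′ untranslated region, chr19:9982733-9982759, plus strand: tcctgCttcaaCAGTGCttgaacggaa
Ftl1, 5′ untranslated region, chr7:45459780-45459806, minus strand: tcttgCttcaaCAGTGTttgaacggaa
Slc40a1, 5′ untranslated region, chr1:45925466-45925492, minus strand: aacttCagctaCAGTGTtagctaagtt
Tfrc, 3′ untranslated region, the first of 4 matches, chr16:32631220-32631246, plus strand: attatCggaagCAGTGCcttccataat

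The ferritin light chain gene Ftl1 (ENSMUSG00000050708, chromosome 7, 45457944 to 45459884, minus strand) had 146, 142 and 128 CPM in the sham libraries. It had 130, 134 and 132 CPM at 10 min and 117, 118 and 137 CPM at 1 h. These 9 early libraries overlapped. Ftl1 then stood at 241, 215 and 237 CPM at 6 h, at 317, 345 and 590 CPM at 24 h, and at 1469, 1262 and 1741 CPM at 72 h. From 6 h on the groups did not overlap with one another or with sham. Against sham the log2 fold change was 0.74 ± 0.17 (SE) at 6 h (adjusted p = 0.00445), 1.59 ± 0.18 at 24 h (adjusted p = 4.18e-06) and 3.43 ± 0.19 at 72 h (adjusted p = 6.58e-11). Replicate 3 was the highest library at 24 h. Without it the 24 h log2 fold change was 1.26. From 6 h to 24 h it rose by 0.85 on the log2 scale (adjusted p = 0.00171), a call that a fit of the 6 libraries of these groups alone did not make (adjusted p = 0.0595). The copy Ftl1-ps1 carried 2.0% of the CPM of Ftl1 in sham and 2.58% at 72 h.

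The heavy chain gene Fth1 (ENSMUSG00000024661, chromosome 19, 9980598 to 9985098, plus strand) had 1280, 1315 and 1199 CPM in sham. At 6 h it had 1684, 1526 and 1530 CPM, above every sham library, with a log2 fold change of 0.32 ± 0.12 that was not called (adjusted p = 0.0597). It was called by DESeq2 (adjusted p = 0.0294), in a fit of the sham and 6 h libraries alone (adjusted p = 0.0153) and in 3 of 18 fits that left out 1 library, over a range of 0.0153 to 0.195. At 24 h it had 1185, 1038 and 1472 CPM, and at 72 h 1394, 1122 and 1424 CPM, both overlapping sham. The log2 fold change at 72 h was 0.05 ± 0.12 (adjusted p = 0.713). The fall from 6 h to 24 h, by 0.36 on the log2 scale (adjusted p = 0.0372), was lost under 5 of 10 other settings and in 5 of 18 fits that left out 1 library (each library of 6 h, and replicates 1 and 2 of 24 h). Scaling by library size alone moves the median gene at 72 h by 0.61 on the log2 scale, and Fth1 was then called higher at 72 h (0.64, adjusted p = 6.00e-05), close to that shift.

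The ratio of the chains within a library does not depend on how libraries are scaled. In the authors' deposited FPKM (fragments per kilobase of transcript per M fragments), which are per length, Fth1 exceeded Ftl1 by a ratio of 14.1 ± 0.479 (SD, n = 3) in sham, 14.8 ± 0.971 at 10 min and 15.8 ± 1.25 at 1 h. The ratio was 10.6 ± 0.533 at 6 h, 4.77 ± 0.969 at 24 h and 1.37 ± 0.101 at 72 h. At 72 h the mean ratio was thus 9.69% of that in sham. The ratios of the 3 late groups lay below every sham library and did not overlap with one another. An exact two-sided permutation test against sham gave p = 0.1 at 6, 24 and 72 h, the smallest value that 3 against 3 allows. The level of the ratio, though not its change, rests on the transcript length behind the FPKM: this was 866 bases for Fth1 and 3469 bases in GENCODE M21, with which the mean ratio would be 3.53 in sham and 0.342 at 72 h.

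**Figure D3:**
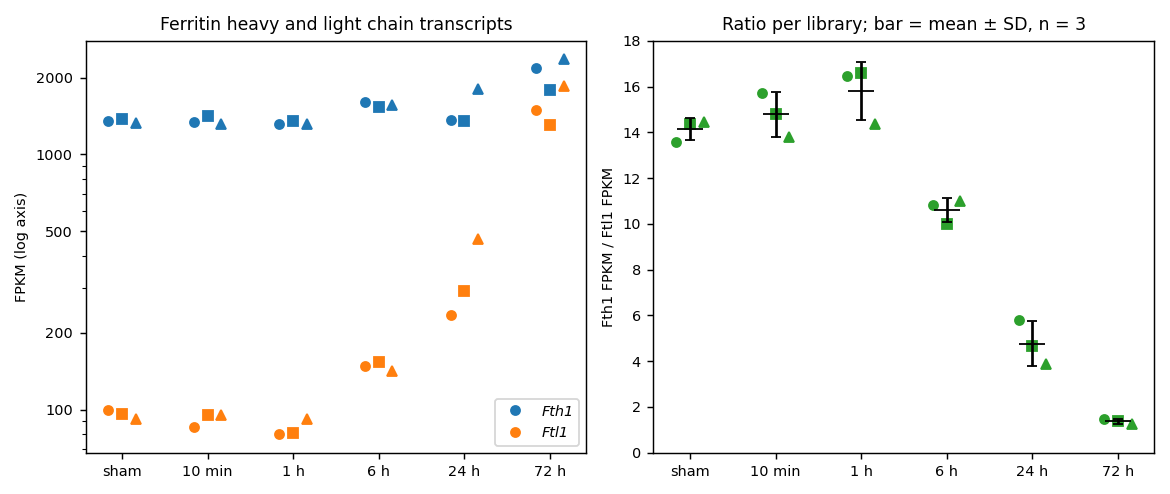
Left, deposited FPKM of Fth1 and Ftl1 (log axis) in each library by group; right, the ratio of Fth1 to Ftl1 FPKM per library with the mean and SD of 3. The ratio falls from 13.6 to 14.4 in sham to 1.27 to 1.47 at 72 h, as Ftl1 approaches Fth1.

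The transferrin receptor Tfrc, the main door for transferrin-bound iron, was not called in any comparison (ENSMUSG00000022797, chromosome 16, 32608920 to 32632794, plus strand). It had 74.1, 76.5 and 101 CPM in sham, and 229, 126 and 102 CPM at 10 min. The libraries of 10 min all lay above sham, yet their log2 fold change of 0.86 ± 0.44 was not called (adjusted p = 0.781). At 1 h the libraries had 165, 102 and 92.5 CPM. At 6 h they had 43.5, 120 and 40.6 CPM, so that 2 lay below and 1 above every sham library. Without replicate 2 of 6 h, the decrease from 1 h to 6 h (-1.51, adjusted p = 0.0169) and the increase from 6 h to 24 h (1.22, adjusted p = 0.0422) were called. The adjusted p of these 2 comparisons ran from 0.0169 to 0.509 and from 0.0422 to 0.843 over all settings. Levels at 24 h (95.1, 140 and 57.7 CPM) and at 72 h (91.6, 94.5 and 74.8 CPM) overlapped sham.

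The exporter Slc40a1 rose late (ENSMUSG00000025993, chromosome 1, 45908068 to 45926523, minus strand). It had 19.1, 15.6 and 13.4 CPM in sham, 12.1, 21.7 and 25.8 CPM at 10 min and 13.1, 16.5 and 19.8 CPM at 1 h. Values at 6 h were 19.5, 19.95 and 18.4 CPM, and at 24 h 11.9, 6.15 and 13.7 CPM. The groups up to 24 h overlapped sham. At 72 h the libraries had 35.7, 29.0 and 50.3 CPM, above all others, with a log2 fold change of 1.26 ± 0.30 against sham (2.39-fold, adjusted p = 0.00152) and 1.87 ± 0.30 against 24 h (adjusted p = 0.000111). The decrease from 6 h to 24 h (-0.88 ± 0.30, adjusted p = 0.0426) was lost under 6 of 10 other settings and in 9 of 18 fits that left out 1 library. The 5 markers of resident macrophages, which recycle iron, summed to 68.4 to 81.6 CPM in sham and 163 to 198 CPM at 72 h. Of these, Mrc1 (a mean of 24.5 CPM in sham and 134 at 72 h) and Folr2 rose, Timd4 (1.78 and 0.753 CPM) and Lyve1 (27.9 and 13.2 CPM) fell, and Cd163 was not called at 72 h. The part of these cells in the result was not tested.

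Hepcidin (Hamp), the peptide hormone that closes ferroportin and is made chiefly in liver, appeared briefly at low counts (ENSMUSG00000050440, chromosome 7, 30942368 to 30944032, minus strand). The 9 libraries of sham, 10 min and 1 h held 2 counts in all, 1 in sham and 1 at 10 min. At 6 h the libraries held 106, 9 and 28 counts, or 6.32, 0.431 and 1.49 CPM. At 24 h they held 5, 5 and 30 counts, and at 72 h 0, 2 and 1. All libraries of 6 h and 24 h lay above sham, and those of 72 h overlapped it. Per effective library size the summed counts of 6 h were 156 times those of sham, with a 95% counting interval of 27.5 to 6203, and 57.4 times (9.69 to 2329) without replicate 1. At 24 h the ratio was 34.8 (5.89 to 1407). The edgeR adjusted p was 0.00389 at 6 h and 0.0423 at 24 h. Replicate 1 of 6 h, the highest for Hamp, is the library with 151 CPM of atrial markers, whose part was not tested. Without it the 6 h call held (adjusted p = 0.0108). The 24 h call was lost without replicate 3 of 24 h (adjusted p = 0.227), as in 8 of 18 fits that left out 1 library, over a range of 0.00431 to 0.227 across settings. The decrease from 24 h to 72 h (adjusted p = 0.0296) was lost without replicate 3 of 24 h or without any 1 library of 72 h.

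The neighbouring copy Hamp2, 1 of the listed genes of hepcidin regulation, stayed at 0 to 3 counts in every library and was removed by the filter. The 120 bases before each start are shown, because the copies share most of this stretch and differed in counts at 6 h. They are from RefSeq, build GRCm38.p6, where 8 of the 10 genes had a promoter entry (not Hmox1 or Slc40a1). Capitals mark TTCNNNGAA, the letters bound by STAT factors, and GGCGCC, the core of the BMP response element, both of which read the same on either strand.
Hamp, chr7:30944030-30944149, minus strand: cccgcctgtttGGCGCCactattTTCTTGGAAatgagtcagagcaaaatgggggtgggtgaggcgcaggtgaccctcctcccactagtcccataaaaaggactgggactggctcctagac
Hamp2, chr7:30924182-30924301, minus strand: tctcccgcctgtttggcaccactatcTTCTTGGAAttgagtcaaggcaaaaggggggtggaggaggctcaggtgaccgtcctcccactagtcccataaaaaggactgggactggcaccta
TTCTTGGAA began 97 bases before the start in Hamp and 94 bases before it in Hamp2, and GGCGCC was found in the window of Hamp, 109 bases before its start. Of 32851 promoter windows of 300 bases, 8.30% held TTCNNNGAA and 11.9% held GGCGCC. Among the 8 members with a window, 2 held TTCNNNGAA (Hamp and Slc7a11) and 3 held GGCGCC (Hamp, Gpx4 and Tfrc). Neither Gpx4 nor Tfrc was called at 6 h.

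Heme oxygenase 1 (Hmox1, ENSMUSG00000005413, chromosome 8, 75093621 to 75100589, plus strand), the inducible enzyme that splits heme into iron, carbon monoxide and biliverdin, showed the largest rise among the well-counted members. It had 4.40, 5.39 and 5.91 CPM in sham, 6.48, 5.37 and 6.87 CPM at 10 min and 6.18, 8.23 and 6.76 CPM at 1 h. At 6 h it had 116, 107 and 80.5 CPM, above every earlier library. At 24 h it had 74.3, 41.3 and 243 CPM, a spread that took in all of 6 h, and at 72 h 320, 323 and 376 CPM, above every other library. Against sham the rise was 19.3-fold at 6 h (log2 4.27 ± 0.53, adjusted p = 9.78e-05), 22.7-fold at 24 h (4.505 ± 0.54, adjusted p = 3.57e-05) and 64.7-fold at 72 h (6.02 ± 0.57, adjusted p = 5.36e-07). Without replicate 3 of 24 h the 24 h mean was 57.8 in place of 119 CPM and the log2 fold change 3.46. That library sets the order of 6 h and 24 h: with it the log2 difference was 0.24 (adjusted p = 0.727), and without it 24 h lay lower by -0.81 (adjusted p = 0.0101). The adjusted p of this comparison ran from 0.0101 to 0.953 over all settings. The rise from 24 h to 72 h (1.51 ± 0.45, adjusted p = 0.0123) was lost without replicate 1 of 24 h (adjusted p = 0.0619) and in a fit of the 6 libraries compared.

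The transporter Slc11a1, which pumps iron and manganese out of the phagosomes of macrophages and neutrophils, was above sham at 6, 24 and 72 h (ENSMUSG00000026177, chromosome 1, 74375195 to 74386062, plus strand). Sham had 4.45, 5.45 and 6.66 CPM, and the libraries of 10 min and 1 h lay between 3.67 and 6.69 CPM. It had 30.1, 11.2 and 9.48 CPM at 6 h, 18.3, 13.4 and 58.0 CPM at 24 h and 60.7, 62.3 and 78.3 CPM at 72 h. All libraries from 6 h on lay above sham, and 6 h and 24 h overlapped. The log2 fold change against sham was 1.60 ± 0.55 at 6 h (adjusted p = 0.0432), 2.42 ± 0.54 at 24 h (adjusted p = 0.00301) and 3.60 ± 0.55 at 72 h (12.1-fold, adjusted p = 6.17e-05). The 6 h call was fragile: it was lost without replicate 1 of 6 h (0.90, adjusted p = 0.258) and in 13 of 18 fits that left out 1 library, with an adjusted p between 0.00313 and 0.258 over all settings. Without replicate 3 of 24 h the 24 h log2 fold change was 1.51 (adjusted p = 0.0131). The 6 neutrophil markers summed to 757, 269 and 103 CPM in replicates 1 to 3 of 6 h and to 157, 36.1 and 663 CPM at 24 h, the same order of libraries as for Slc11a1 within each group. Their part in the result was not tested.

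Slc7a11, the light subunit of the cystine and glutamate exchanger that feeds glutathione synthesis, was almost absent before 6 h (ENSMUSG00000027737, chromosome 3, 49892526 to 50443614, minus strand). The 9 libraries of sham, 10 min and 1 h held 0 to 3 counts each. At 6 h there were 281, 110 and 26 counts, at 24 h 93, 26 and 551, and at 72 h 57, 99 and 99. In CPM these were 16.7, 5.26 and 1.38 at 6 h, 4.01, 0.920 and 28.4 at 24 h, and 1.80, 3.01 and 3.15 at 72 h. Every library from 6 h on lay above every earlier one, and the 3 late groups overlapped. Against the 6 counts of sham the ratio per effective library size was 75.8 at 6 h (95% counting interval 34.5 to 208), 97.1 at 24 h (44.4 to 265) and 27.3 at 72 h (12.4 to 75.0). The edgeR adjusted p values were 0.00887, 0.00304 and 0.0209. With limma on log2(FPKM + 1), none of the 3 was called. The log2 fold change fell from 6.23 to 5.02 without replicate 1 of 6 h (adjusted p = 0.0418) and from 6.73 to 4.56 without replicate 3 of 24 h (adjusted p = 0.0126), and the call at 72 h was lost without any 1 sham library. Over all settings the adjusted p ran from 7.68e-06 to 0.230 at 6 h, from 6.00e-07 to 0.0666 at 24 h and from 3.47e-07 to 0.326 at 72 h. Slc7a11 also followed the neutrophil marker sum from library to library within 6 h and 24 h, and the part of these cells was not tested. At 72 h that sum was 51.4 to 61.5 CPM against 2.31 to 3.63 CPM in sham.

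The 120 bases before the RefSeq start of Slc7a11 are shown because this gene is known for induction by amino acid starvation through ATF4, for which TGATGNAAN is the amino acid response element. Capitals mark it on either strand.
Slc7a11, chr3:50443614-50443733, minus strand: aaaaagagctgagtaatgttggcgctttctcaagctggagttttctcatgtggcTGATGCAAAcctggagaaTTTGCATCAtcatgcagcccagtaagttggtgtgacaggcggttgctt
It stands on the gene's strand 66 bases before the start and on the other strand 48 bases before it. Of all 32851 windows of 300 bases, 3.95% held it, and among the 8 members with a window Slc7a11 was the one that did. TGACNNNGC, the antioxidant response element, was found in 12.4% of all windows and in 0 of these 8, too few to compare with that share. The windows run from 250 bases before the start to 50 after it, and sequence farther away was not searched.

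Gpx4, the selenoenzyme that reduces lipid hydroperoxides in membranes, was the 1 member that fell against sham (ENSMUSG00000075706, chromosome 10, 80047166 to 80056439, plus strand). Its libraries had 455, 454 and 415 CPM in sham. The 10 min and 1 h libraries lay between 370 and 425 CPM, those of 6 h at 418, 418 and 487 CPM, and those of 24 h at 430, 380 and 317 CPM. At 72 h it had 292, 235 and 258 CPM, below every other library, a decrease of 1.68-fold (log2 -0.75 ± 0.11, adjusted p = 1.24e-05). This call holds relative to the median gene: with scaling by library size, which lifts that median by 0.61, the log2 fold change was -0.17 (adjusted p = 0.185), and with limma on FPKM it was also lost, as was the decrease from 24 h to 72 h (-0.52, adjusted p = 0.000915). The deposited FPKM were 237 ± 5.76 in sham and 211 ± 20.5 at 72 h (SD, n = 3). The copy Gpx4-ps2 carried 16.3% to 18.2% of the CPM of Gpx4 in each group, so counts split between them leave the level of Gpx4 uncertain.

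Acsl4, which loads polyunsaturated fatty acids into membrane phospholipids, stood above sham at the 3 late times (ENSMUSG00000031278, chromosome X, 142317993 to 142390535, minus strand). It had 14.6, 15.97 and 14.9 CPM in sham, and 13.7 to 16.5 CPM at 10 min and 1 h. The libraries had 37.4, 25.9 and 21.04 CPM at 6 h, 20.3, 21.6 and 36.4 CPM at 24 h and 31.1, 34.7 and 29.8 CPM at 72 h. All 9 late libraries lay above all 9 early ones. The log2 fold change was 0.89 ± 0.20 at 6 h (adjusted p = 0.00324), 0.78 ± 0.20 at 24 h (adjusted p = 0.00451) and 1.07 ± 0.20 at 72 h (2.104-fold, adjusted p = 0.000126). Replicate 1 of 6 h and replicate 3 of 24 h were again the highest of their groups, and without each of them the call of its group held (0.63, adjusted p = 0.0230, and 0.47, adjusted p = 0.0302). The step from 24 h to 72 h was not called (0.29 ± 0.19, adjusted p = 0.220). It was called with library size scaling, with both limma fits, without replicate 3 of 24 h and without both of these libraries. Over all settings this step ran from 0.14 to 0.72, with an adjusted p from 0.000104 to 0.609.

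Replicate 1 of 6 h and replicate 3 of 24 h ranked first in their groups for Hmox1, Fth1, Ftl1, Hamp, Slc7a11, Acsl4 and Slc11a1. With both left out, an alternative added after the data were seen, Hamp no longer passed the filter on low counts. Of the other 9 genes, 5 stood above sham at 6 h and 5 at 24 h, the same ones as before without Hamp, and 7 changed at 72 h. The 24 h replicate 3 library also had the lowest cardiomyocyte marker sum of its group (24992 CPM against 38076 and 38695) and the highest monocyte and macrophage sum (886 CPM against 579 and 582).

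**Figure D4:**
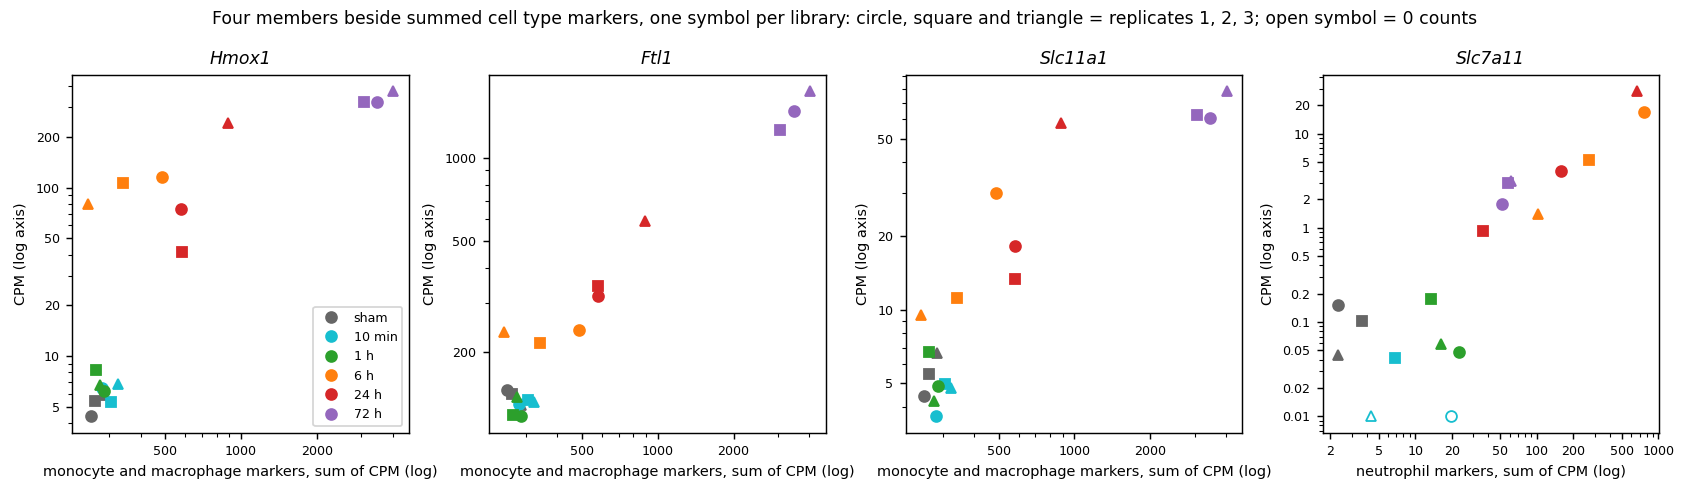
CPM of Hmox1, Ftl1, Slc11a1 and Slc7a11 (log axes) in each of the 18 libraries against the summed CPM of 7 monocyte and macrophage markers or, for Slc7a11, of 6 neutrophil markers (log axes), coloured by group. At 6 h Hmox1 stands at 80.5 to 116 CPM with macrophage sums of 246 to 487, beside 253 to 286 in sham. Neutrophil sums, drawn for Slc7a11 alone, were 103 to 757 CPM at 6 h, beside 2.31 to 3.63 in sham.

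Replicates 1, 2 and 3 of 6 h had macrophage marker sums of 487, 341 and 246 CPM, the first and second above and the last below the 253 to 286 CPM of sham. In the same order they had 116, 107 and 80.5 CPM of Hmox1, all above sham. Their neutrophil marker sums were 757, 269 and 103 CPM, against 2.31 to 3.63 CPM in sham, the same order of libraries as for Hmox1. At 24 h the neutrophil sums (157, 36.1 and 663 CPM) again had the order of Hmox1 (74.3, 41.3 and 243 CPM). The part of macrophages or neutrophils in the 6 h and 24 h levels was not tested. Of the 7 macrophage markers, 3 had risen at 6 h (Cd68, Cd14 and Itgam) and 1 had fallen (Adgre1). By 72 h all 7 of these markers had risen, as had all 4 fibroblast markers (a sum of 540 to 559 CPM in sham and 5300 to 6489 at 72 h), and the part of either cell type in the levels of 72 h was not tested. Red blood cell markers, mostly hemoglobin, summed to 526 to 778 CPM in sham, 687 to 1429 at 6 h and 225 to 339 at 72 h. Of their 4 tested genes, 1 had risen at 6 h and 4 had fallen at 72 h.

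Per length, the order of the members changed with time. In sham the deposited FPKM were 1352 ± 24.97 for Fth1, 237 ± 5.76 for Gpx4, 95.8 ± 3.93 for Ftl1 and 12.6 ± 2.62 for Tfrc (SD, n = 3), each above the next in all libraries. Hmox1 (2.78 ± 0.467) and Acsl4 (2.60 ± 0.115) overlapped, as did Slc40a1 (1.65 ± 0.268) and Slc11a1 (1.39 ± 0.315). Hamp and Slc7a11 were lowest and overlapped. At 72 h Fth1 (2111 ± 286) and Ftl1 (1551 ± 284) overlapped at the top, and Hmox1 (270 ± 32.1) came next, above Gpx4 (211 ± 20.5). The order of Fth1 and Ftl1 at 72 h rests on the length behind the FPKM of Fth1. With the GENCODE M21 length their mean ratio would be 0.342, with Ftl1 above Fth1. Slc11a1 (25.3 ± 4.37) had moved above Tfrc (19.5 ± 1.98).

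Around these members, 80 other genes of the same pathways were listed in 8 groups, and 75 were tested. At 10 min edgeR called 0 of them, with 6 at an unadjusted p under 0.05, and DESeq2 and limma also called 0. At 1 h edgeR called 0, with 3 at an unadjusted p under 0.05, DESeq2 called 2 (Ptgs2 and Sat1) and limma 0 or 1 depending on the pseudocount. At 6 h 21 had risen and 4 had fallen, at 24 h 17 and 18, and at 72 h 24 and 29. Those that rose made up 28%, 22.7% and 32% of the 75 at the 3 times, beside 16.3%, 23.7% and 34.2% of all genes, and those that fell 5.33%, 24% and 38.7%, beside 12.2%, 20.2% and 32.2%. At 24 h and 72 h the shares were thus near those of all genes. The median log2 fold change of the 75 was 0.07 at 6 h, 0.07 at 24 h and -0.04 at 72 h, beside -0.01, 0.01 and 0.03 over all genes tested. With scaling by library size the split was 18 risen and 7 fallen at 6 h, 26 and 9 at 24 h, and 45 and 15 at 72 h, where 79.9% of all calls were then higher, in place of 51.4%. Of all 16311 genes with that scaling, 1914 rose and 2802 fell at 6 h. At 24 h these were 5558 and 1805, and at 72 h 9472 and 2382.

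Of 9 genes of heme synthesis, 0 rose at these times, beside 16.3%, 23.7% and 34.2% of all genes. In this list 1 fell at 6 h, 5 fell at 24 h and 7 fell at 72 h, beside 12.2%, 20.2% and 32.2% of all genes. At 72 h the median log2 fold change of the list was -0.94. Ferrochelatase (Fech), which inserts iron into heme, fell from 123 ± 7.07 CPM in sham to 51.6 ± 3.60 CPM at 72 h (SD, n = 3; log2 -1.26 ± 0.12, adjusted p = 2.96e-08). Alad fell by 1.37 and Urod by 0.82 on the log2 scale at 72 h (adjusted p = 3.33e-07 and 2.99e-07), both enzymes of the porphyrin pathway. With scaling by library size 4 of the 9 fell and 2 rose at 72 h, beside 2382 and 9472 of all 16311 genes. Urod was then no longer called (-0.23, adjusted p = 0.0546). Iron-sulfur cluster assembly likewise had 7 of 7 genes lower at 72 h, 4 of 7 with library size scaling, among them the cysteine desulfurase Nfs1 (-1.20 ± 0.11) and the scaffold Iscu (-1.03 ± 0.10). All 8 cardiomyocyte markers fell at 72 h too, and their part in these counts was not tested.

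Of 11 genes of heme degradation, transport and scavenging, 5 rose and 1 fell at 6 h, beside 16.3% and 12.2% of all genes. At 24 h, 3 rose and 2 fell, beside 23.7% and 20.2%. At 72 h, 6 rose and 2 fell, beside 34.2% and 32.2%. With library size scaling the counts of this list were 3 and 1, 5 and 0, and 9 and 1. Of all 16311 genes, 1914 and 2802, 5558 and 1805, and 9472 and 2382 then rose and fell. Biliverdin reductase B (Blvrb), a later step of the same breakdown as Hmox1, went from 12.5 ± 0.533 CPM in sham to 43.1 ± 7.92 CPM at 72 h (3.45-fold, adjusted p = 1.12e-09), and was not called at 6 h or 24 h. The heme exporter Flvcr1 (3.21-fold, adjusted p = 1.30e-07) and Lrp1, the receptor for hemopexin-bound heme (3.29-fold, adjusted p = 2.69e-09), were also above sham at 72 h. None of these 3 was called at 6 h, when Hmox1 was.

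Of 12 other genes of iron transport, 4 had risen and 1 had fallen at 6 h, 2 and 2 at 24 h, and 4 and 2 at 72 h. Of all genes, 16.3%, 23.7% and 34.2% rose and 12.2%, 20.2% and 32.2% fell. At 24 h and 72 h neither share of the list exceeded that of all genes. With library size scaling the counts were 4 and 1, 3 and 0, and 8 and 0. Of all 16311 genes, 1914 and 2802, 5558 and 1805, and 9472 and 2382 then rose and fell. Lcn2, the siderophore-binding lipocalin of neutrophils and stressed cells, rose from 2.83 ± 0.463 CPM in sham to 169 ± 5.52 CPM at 6 h (59.8-fold, adjusted p = 1.60e-06) and was 2.26-fold above sham at 72 h. Importers of iron not bound to transferrin rose at 6 h: Slc39a14 2.38-fold (adjusted p = 0.000188) and Slc39a8 3.09-fold (adjusted p = 0.00570). The 6 h mean of Slc39a8, 3.48 CPM, was 1.99 without replicate 2. Their later courses differed. Slc39a14 was 1.73-fold above sham at 24 h (adjusted p = 0.00316) and not called at 72 h (0.87-fold). Slc39a8 was not called at 24 h (0.80-fold) and was 5.01-fold above sham at 72 h (adjusted p = 4.06e-05). In storage and iron sensing, 0 of 6 were called at 6 h, where 16.3% of all genes rose and 12.2% fell. At 24 h, 1 rose and 0 fell, beside 23.7% and 20.2% of all genes. At 72 h, 2 rose and 1 fell, beside 34.2% and 32.2%. Library size scaling made it 6 risen and 0 fallen, beside 9472 and 2382 of all 16311 genes. At 72 h the ferritin receptor Ncoa4 was higher (0.53 ± 0.13, adjusted p = 0.00172) and Pcbp2, an iron chaperone, lower (-0.20 ± 0.08, adjusted p = 0.0292), which library size scaling turned to 0.39. Pcbp1, another iron chaperone, was not called at 6, 24 or 72 h (-0.02 at 72 h), although with library size scaling it was called at 72 h (0.57).

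Upstream of hepcidin, the ligands parted. Bmp6, the main inducer of hepcidin in liver, fell from 119 ± 17.1 CPM in sham to 33.5 ± 3.39 CPM at 72 h (3.54-fold lower, adjusted p = 7.23e-08), and its coreceptor hemojuvelin (Hfe2) fell 2.86-fold (adjusted p = 3.23e-07). Bmp2 rose 2.17-fold at 6 h (adjusted p = 0.0101) and 4.52-fold at 72 h (adjusted p = 3.13e-06), from 2.22 ± 0.236 CPM to 10.01 ± 1.996 CPM. At 6 h, when Hamp was highest, Bmp6 (-0.08) and Hfe2 (-0.40, adjusted p = 0.0778) were not called. Of the 5 tested genes of this list, 1 rose and 0 fell at 6 h, beside 16.3% and 12.2% of all genes. With library size scaling Hfe2 was called lower at 6 h (-0.50, adjusted p = 0.0202).

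In ferroptosis defence 7 of 13 genes rose and 0 fell at 6 h, 7 rose and 1 fell at 24 h, and 6 rose and 2 fell at 72 h. This stood beside 16.3%, 23.7% and 34.2% of all genes that rose and 12.2%, 20.2% and 32.2% that fell. With library size scaling these counts were 6 and 1, 8 and 0, and 11 and 1. Of all 16311 genes, 1914 and 2802, 5558 and 1805, and 9472 and 2382 then rose and fell. Slc3a2, the heavy chain that partners Slc7a11, rose from 42.4 ± 1.10 CPM in sham to 118 ± 9.84 CPM at 6 h (2.77-fold, adjusted p = 7.41e-06). Thioredoxin reductase 1 (Txnrd1) rose 2.38-fold (adjusted p = 3.79e-05) and the transcription factor Nfe2l2 (Nrf2) 1.49-fold (adjusted p = 0.000186) at 6 h. At 72 h Slc3a2 (2.06-fold) and Txnrd1 (1.73-fold) were still above sham, and Nfe2l2 was not called (0.14, adjusted p = 0.189), although with library size scaling it was (0.72). Of 12 genes of lipid peroxidation and ferroptosis markers, 4 rose and 1 fell at 6 h, beside 16.3% and 12.2% of all genes. At 24 h the counts were 3 risen and 2 fallen, near the shares of all genes (23.7% and 20.2%). At 72 h they were 3 and 6, beside 34.2% and 32.2%. Library size scaling turned this split to 6 and 3, beside 9472 and 2382 of all 16311 genes. Sat1, a polyamine enzyme linked to ferroptosis, rose 4.89-fold at 6 h and 4.61-fold at 72 h (adjusted p = 7.09e-06 and 3.66e-07). The lipoxygenase Alox5 fell to 12.4 ± 1.59 CPM at 6 h from 18.1 ± 0.492 CPM in sham (adjusted p = 0.00638), and the mitochondrial channel Vdac3 fell by 1.02 on the log2 scale at 72 h (adjusted p = 2.50e-07).

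**Figure D5:**
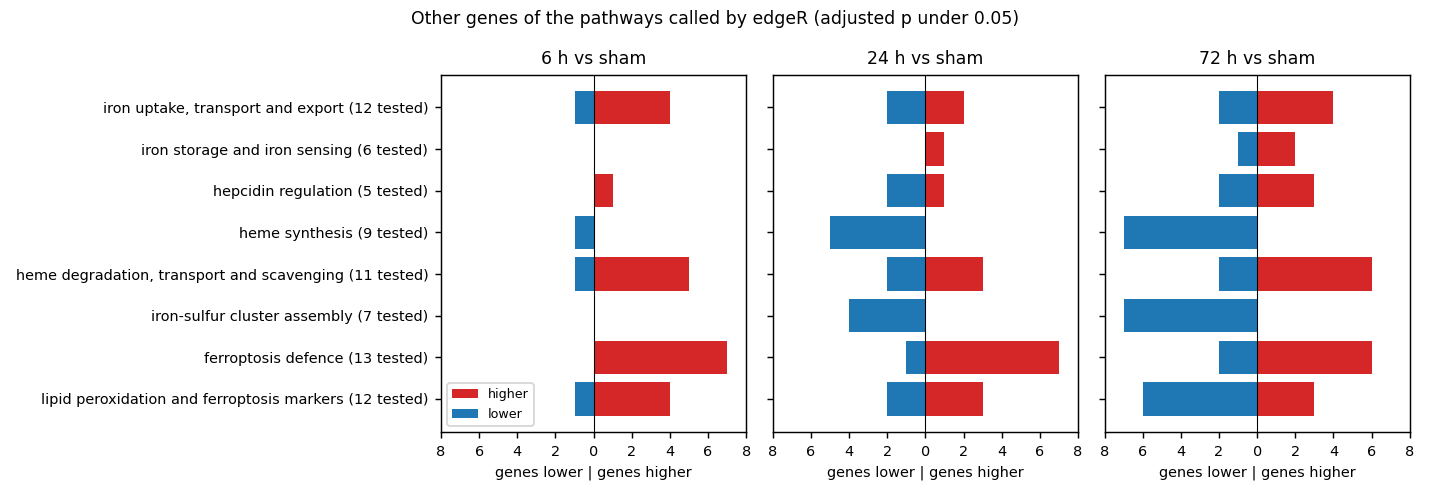
Number of genes called higher (right) or lower (left) against sham in 8 groups of other iron, heme and ferroptosis genes at 6 h, 24 h and 72 h, with the number tested beside each group. Heme synthesis and iron-sulfur cluster assembly have 7 lower genes each at 72 h and 0 higher, and ferroptosis defence has 7 higher and 0 lower at 6 h.

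Among 11703 genes averaging 50 or more counts, the closest patterns were sought by the root mean square difference in centred log2 CPM over the 18 libraries, a description over libraries that share the groups. For Hmox1 the nearest were Ms4a6d (0.52), Csf2rb (0.57) and Csf2rb2 (0.61), for Ftl1 Tmem106a (0.20), Soat1 (0.21) and Fermt3 (0.22), and for Slc11a1 they included C5ar1 (0.29) and Igsf6 (0.30). Hamp was nearest to Hbegf (0.59), Pgf (0.68) and Hdc (0.68), and Slc7a11 to Acod1 (0.67), Slfn1 (0.71) and Il1b (0.78). Slc40a1 was nearest to Tcf21 (0.30), Hebp1 (0.36) and Igfbp4 (0.37), and Acsl4 to Ralb (0.14), Mapk6 (0.15) and Gna13 (0.15). Gpx4 lay within 0.05 of Arl2, with its copy Gpx4-ps2 (0.07) and Mrpl23 (0.07) next. Fth1 was nearest to Tmem87b, Casc3 and Dnajb6 (0.11 to 0.12) and Tfrc to Xrcc2, Tubg1 and Tbc1d32 (0.38 to 0.40), differences not far below their own root mean square deviations of 0.17 and 0.60. For Hmox1 that deviation was 2.41.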

How the data were processed

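Poly(A) RNA libraries from 18 mice were processed by the authors with cutadapt 1.18, HISAT2 2.1.0 and featureCounts on mm10, per the submitters' processing notes. The deposited tables hold raw gene counts and FPKM. The authors' counts were used for every test, and the deposited FPKM for levels per length and for limma. The FPKM columns of replicates 2 and 3 of 6 h match each other's counts, so FPKM by replicate are exchanged there, which leaves group means alone. Identifiers were matched to GENCODE M21 (30512 matched, 71 not).

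Genes were filtered with filterByExpr (16311 of 30583 kept), scaled by TMM and fitted with edgeR 4.0.16 (robust quasi-likelihood, 1 mean per group, all 18 libraries, two-sided, p adjusted over all genes tested), after a run on simulated data. An SE is the log2 fold change divided by the t quantile of its p. Intervals cover counting error only. Alternatives were library size and RLE scaling, no filter, at least 10 counts in every library, only the libraries compared, DESeq2 1.42.0, limma 3.58.1 on log2(FPKM + 1) or log2(FPKM + 0.1), a replicate block and leaving out each library. From each pathway list the 3 genes with the smallest p over the time course were named, and for each member the 3 nearest genes. Of these, 2 genes are not reported here.

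The labels number the mice within groups and do not say that mice shared a litter or day. The members and lists were chosen with earlier results of these data known.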

Additional observations from a re-analysis of the deposited data

Results flagged for a closer look

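In 14 cases a member's level differed between consecutive times by edgeR's test of that step, so that its effect against sham was not the same at both. From 1 h to 6 h the log2 differences were 3.84 for Hmox1, 0.89 for Ftl1, 6.32 for Slc7a11, 0.87 for Acsl4 and 1.67 for Slc11a1. For Hamp the fitted value of this step was 8.90, which depends on the prior count because all 3 libraries of 1 h held 0 counts. Set against a floor of 3 counts over that group, Hamp was at least 46.2-fold higher at 6 h, and at least 17.02-fold without replicate 1 of 6 h, which held 106 of the 143 counts. From 6 h to 24 h the differences were 0.85 for Ftl1, -0.36 for Fth1 and -0.88 for Slc40a1. From 24 h to 72 h they were 1.51 for Hmox1, 1.84 for Ftl1, 1.87 for Slc40a1, -4.05 for Hamp and -0.52 for Gpx4. The steps of Fth1 and Slc40a1 from 6 h to 24 h, of Slc7a11 and Slc11a1 from 1 h to 6 h, of Ftl1 from 6 h to 24 h, and of Hmox1, Hamp and Gpx4 from 24 h to 72 h were not called under some of the other settings. That of Slc7a11 was lost with limma on log2(FPKM + 1) (adjusted p = 0.252) and without replicate 1 of 6 h (adjusted p = 0.0512), over a range of 1.21e-05 to 0.252.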

How the results depend on the processing

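Of the fitted member changes, 2349 kept their side of the threshold under another setting, 94 lost the call, 36 gained it and 2 changed sign with a call in either fit. Direction was compared only where either fit made a call, so the 2349 include uncalled changes whose sign differed between settings. Both sign changes were Hmox1 from 6 h to 24 h: -0.81 without replicate 3 of 24 h (range over single left-out libraries -0.81 to 0.65) and -0.70 without both replicate 1 of 6 h and replicate 3 of 24 h. The number of members called from 6 h to 24 h, 3, became 1 with library size scaling, without a filter and with both limma fits, 0 when only the libraries compared were fitted, and 1 to 5 when 1 library was left out (1 without replicate 3 of 6 h or replicate 2 of 24 h, 5 without replicate 3 of 24 h). From 24 h to 72 h, 5 became 3 when only the libraries compared were fitted. The cause was not tested. Over all genes, the count called moved by more than 1.5 times at 10 min (12, with 2 to 360 under other settings and 0 to 24 without 1 library), at 1 h (48, 43 to 190 and 31 to 68), from 10 min to 1 h (50, 46 to 244 and 6 to 87), and from 6 h to 24 h (4541, 1024 to 6880). Without replicate 1 of 6 h the count fell from 4639 to 2926 at 6 h and from 4003 to 2481 from 1 h to 6 h, where it was 2664 without replicate 2 of 1 h. For the other pathway genes 0 became up to 4 at 10 min and up to 2 at 1 h. Library size scaling moved the share of higher calls from 57.2% to 40.6% at 6 h, from 54.0% to 75.5% at 24 h and from 51.4% to 79.9% at 72 h. Same-numbered libraries of different groups had deviations correlated at -0.42 to 0.36, with 5 of 45 pairs over 0.1. With 3 mice per group these values cannot tell whether same-numbered mice shared a litter or day. With the replicate block 5 members were called at 6 h and 5 from 1 h to 6 h (the block lost both calls of Slc11a1), and the other counts of members were equal. Hamp could not be fitted with at least 10 counts in every library, nor with both of those libraries left out. With only the libraries compared, Hamp could be fitted from 6 h to 24 h alone. Slc7a11 could not be fitted with at least 10 counts in every library. Among sham, 10 min and 1 h it could not be fitted with only the libraries compared either. Counts of 0 to 3 limit what can be said of Hamp and Slc7a11 before 6 h.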

Other observations

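Single genes of the pathway lists that the naming rule did not take were looked at after their values were seen. Haptoglobin (Hp), which binds free hemoglobin, had 0.399 ± 0.221 CPM in sham and 22.7 ± 16.6 at 6 h, 29.8 ± 32.05 at 24 h and 27.4 ± 2.74 at 72 h (SD, n = 3), and rose at all 3 times (edgeR adjusted p = 0.00120, 0.000410 and 0.000139). The hemoglobin scavenger receptor Cd163 rose at 6 h (1.07 ± 0.26 on the log2 scale, adjusted p = 0.00721), from 18.1 ± 0.897 to 37.8 ± 4.76 CPM, and stood at 18.7 ± 7.50 CPM at 72 h. Ptgs2, often read as a ferroptosis marker, had 0.445 ± 0.233 CPM in sham and 7.09 ± 1.90 CPM at 1 h, which edgeR did not call (adjusted p = 0.204) and DESeq2 did, and 30.7 ± 22.8 CPM at 6 h.

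In defence against lipid peroxidation, Gclm rose at 6, 24 and 72 h (0.62, 0.79 and 0.49 on the log2 scale), while 2 genes that recycle ubiquinone as an antioxidant, Aifm2 (-0.92 ± 0.11, adjusted p = 1.17e-06) and Dhodh (-0.90 ± 0.14, adjusted p = 1.70e-05), fell at 72 h relative to the median gene.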
